A study of Mus musculus with 72 samples.

Results

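Genes that mark the airway lining, its glands, and the gas-exchange surface were followed in lung of 40-week-old *Bmal1*-KO mice with and without the muscle *Bmal1* vector. The genes are *Krt5*, *Krt14*, and *Trp63* (basal cells), *Bpifa1*, *Scgb3a1*, and *Scgb1a1* (gland and secretory cells), and *Lamp3*, *Sftpc*, and *Ager* (alveolar cells), 9 of the 55401 genes in the deposited tables, each matched to its Ensembl identifier by symbol. They were named as a read-out of the proximal airway content of the lung samples with values of the lung comparison already known, so their lung values are given as a description without a test. All 9 had a mean normalized count above 5 in lung, the study's limit for low expression.

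The series holds 72 poly(A) RNA-Seq libraries of mouse tissue, of which 8 are lung, 4 from *Bmal1*-KO mice (KO) and 4 from *Bmal1*-KO mice given the vector (KO+AAV). The vector is an AAV9 that carries hemagglutinin-tagged *Bmal1* cDNA behind CK6, a promoter active in skeletal muscle, and was injected into KO pups. Every lung library used here comes from a male *Bmal1*-KO mouse, the comparison has no WT lung and no lung with a GFP vector, and the labels number the samples of a group without naming the mouse, so P values measure the spread between these samples. The mice of both lung groups were 40 weeks old and the tissue was taken at ZT1, 1 hour after lights on. White fat, heart, and liver of both groups were also sampled at 40 weeks, with 4 libraries each. Gastrocnemius came from mice aged 10 weeks (6 WT, 6 KO, and 7 KO+AAV libraries) or 40 weeks (5 of each genotype). A separate gastrocnemius table at 10 weeks holds 3 KO mice with a GFP vector and 3 KO controls. Transcripts of *Arntl*, the gene for BMAL1, averaged 1457 ± 45.8 normalized counts in KO lung and 1597 ± 173 in KO+AAV lung (SD, n = 4 each), and with no WT lung these levels do not check the knockout.

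Basal cells are the stem cells of the trachea and large bronchi. They carry the keratins KRT5 and KRT14 and the transcription factor p63, and in a mouse they are scarce in the small airways inside the lobes. Submucosal glands and secretory cells of the upper airway release host-defense proteins such as BPIFA1 and lactoferrin, club cells line the bronchioles and release the secretoglobin SCGB1A1, and the alveoli are covered by type 2 cells, which make surfactant, and by thin type 1 cells, which carry the receptor AGER.

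The RefSeq promoter table (build GRCm38.p6) had an entry for 6 of the 9 members. The windows of *Krt5*, *Bpifa1*, and *Scgb3a1* are shown because these 3 genes were higher in every KO+AAV lung library than in any KO lung library. Each is the 250 bases before the RefSeq transcription start, read 5′ to 3′ on the strand of the gene, and the capitals mark matches on either strand to the TATA box (TATAAA), a forkhead motif (TGTTTAC, with the variants TATTTAC and also TGTTTGC), an NK2-class homeodomain motif (CAAGTG), or the circadian E-box that CLOCK and BMAL1 bind (CACGTG). The window of *Krt5* is chr15:101712906-101713155 on the minus strand, that of *Bpifa1* is chr2:154142630-154142879 on the plus strand, and that of *Scgb3a1* is chr11:49663345-49663594 on the plus strand.
Krt5: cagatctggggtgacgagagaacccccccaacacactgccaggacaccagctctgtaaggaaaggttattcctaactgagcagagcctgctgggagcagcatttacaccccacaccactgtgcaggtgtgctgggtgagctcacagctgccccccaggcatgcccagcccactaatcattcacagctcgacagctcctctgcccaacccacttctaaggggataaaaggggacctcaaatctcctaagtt
Bpifa1: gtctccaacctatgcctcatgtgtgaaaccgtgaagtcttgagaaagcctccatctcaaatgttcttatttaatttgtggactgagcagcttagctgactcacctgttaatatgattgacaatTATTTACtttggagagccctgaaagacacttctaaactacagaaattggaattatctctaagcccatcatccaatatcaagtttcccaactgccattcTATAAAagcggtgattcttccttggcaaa
Scgb3a1: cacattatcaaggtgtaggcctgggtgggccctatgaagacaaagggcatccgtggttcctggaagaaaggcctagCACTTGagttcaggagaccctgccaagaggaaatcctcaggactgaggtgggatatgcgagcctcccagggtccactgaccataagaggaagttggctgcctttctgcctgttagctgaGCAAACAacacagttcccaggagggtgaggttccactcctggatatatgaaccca
The *Bpifa1* window held TATAAA beginning 29 bases before the start and TATTTAC beginning 127 bases before it. The *Scgb3a1* window held GCAAACA, the reverse complement of TGTTTGC, 55 bases before the start and CACTTG, the reverse complement of CAAGTG, 174 bases before it, and the *Krt5* window held none of the 4 motifs. CACGTG was in none of these 3 windows, nor in those of *Lamp3* and *Ager*. The table's entry for *Krt14* lies at a start inside the gene and was left out. Among the 32851 promoter windows of the table, 12.4% held the TATA box, 9.73% a forkhead motif, 11.6% the NK2-class motif, and 6.02% the E-box. These matches are a description of the letters in the windows and do not show binding.

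The lung libraries held 38180622 to 49821579 reads on genes, with 43756907 to 49821579 in KO and 38180622 to 43800020 in KO+AAV. Of the 9 members, 5 had values that did not overlap between the groups, 4 of them higher in KO+AAV (*Krt5*, *Trp63*, *Bpifa1*, and *Scgb3a1*) and 1 lower (*Lamp3*). Among all 21072 genes with a mean above 5 in lung, 6.77% had groups without overlap (3.91% higher and 2.86% lower in KO+AAV), and since the members were chosen on this comparison their count is not read against that share. Fewer cells of a kind and less RNA per cell cannot be told apart in such bulk samples.

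**Figure D1:**
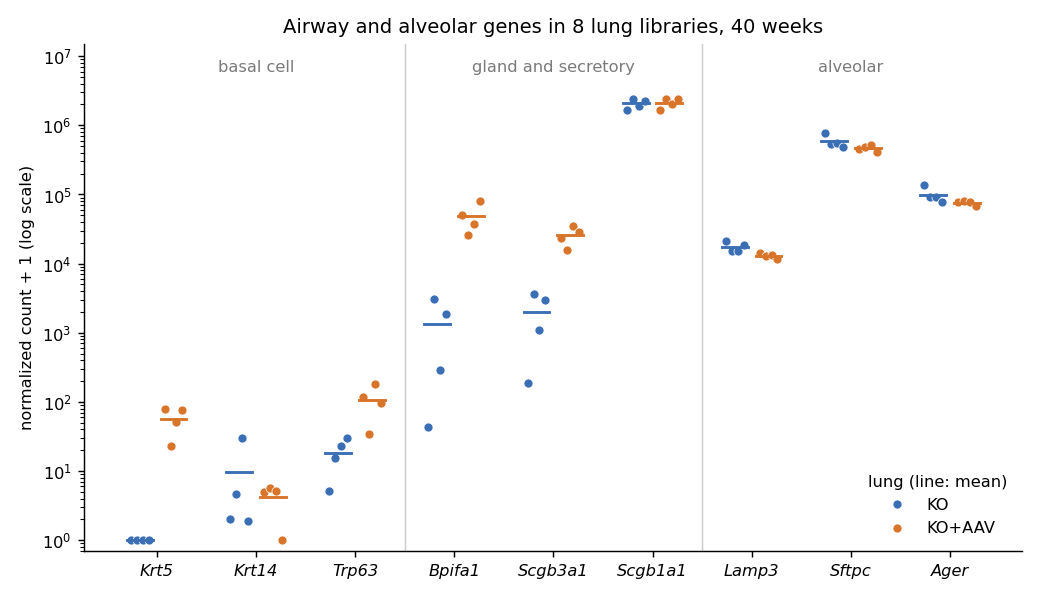
Normalized counts (plus 1, log scale) of the 9 members in each of the 8 lung libraries, KO in blue and KO+AAV in orange, with lines at the group means. *Krt5* sits at 0 counts in all 4 KO libraries and between 21.9 and 77.3 in KO+AAV, *Bpifa1* and *Scgb3a1* lie higher in every KO+AAV library, and *Scgb1a1* is at the same height in both groups.

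*Krt5* (ENSMUSG00000061527, chr15:101707070-101712898, minus strand), the keratin that defines airway basal cells, had 0 reads in all 4 KO lung libraries. In the KO+AAV libraries it had 79, 19, 48, and 71 reads, which are 77.3, 21.9, 49.8, and 74.4 normalized counts in replicates 1 to 4. All 4 KO+AAV libraries were above all KO libraries, and the mean of 55.9 ± 25.8 (SD, n = 4) was at least 19.7-fold higher than the 3 reads per library that a count of 0 allows. That floor covers counting error only. Of the bases in *Krt5* exons, 5.87% are shared with *Gm44323* on the other strand, and whether the counting used strand is not given in the sources used here.

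*Trp63* (ENSMUSG00000022510, chr16:25683763-25892102, plus strand) encodes p63, the factor that keeps basal cells in the stem cell state. Its normalized counts were 4.2, 14.6, 22, and 28.6 in KO replicates 1 to 4 and 116, 33.5, 179, and 95.3 in KO+AAV replicates 1 to 4. The groups did not overlap, but the lowest KO+AAV library, replicate 2, was only 1.17-fold above the highest KO library. The ratio of the means was 6.12, and the log2 difference was 2.58 ± 0.75 (SE, n = 4 per group, on the log2(normalized count + 1) scale, as are all log2 values below).

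*Krt14* (ENSMUSG00000045545, chr11:100203162-100207548, minus strand), the keratin partner of KRT5 in many basal cells, did not follow them. Its normalized counts were 1.05, 3.64, 28.7, and 0.867 in KO and 3.92, 4.61, 4.15, and 0 in KO+AAV, so 1 KO library, replicate 3, stood above the other 7, which held at most 4 reads each. The log2 difference of −0.47 ± 1.10 (SE) was within the spread and became 0.40 without KO replicate 3. That library also had the highest summed level of 6 mesothelium genes, 21483 normalized counts against 6412 to 16677 in the other 7 libraries, and the part of mesothelium in its *Krt14* level was not tested. Per length, the basal members were the lowest of the 9, with mean RPKM of 0.581 for *Krt5*, 0.290 for *Trp63*, and 0.0415 for *Krt14* in KO+AAV lung.

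*Bpifa1* (ENSMUSG00000027483, chr2:154142880-154149219, plus strand) encodes an antimicrobial protein of the upper airway lining. Among the 7 members without a library at 0, it had the highest ratio of the highest to the lowest lung library, 1873. Its normalized counts were 43.1, 3107, 286, and 1838 in KO replicates 1 to 4. In KO+AAV they were 50372, 25652, 37565, and 80640. The lowest KO+AAV library was 8.26-fold above the highest KO library, the ratio of the means was 36.8, and the log2 difference was 6.42 ± 1.44 (SE, n = 4 per group). In KO+AAV lung it took 0.0582% to 0.180% of all reads on genes.

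*Scgb3a1* (ENSMUSG00000064057, chr11:49663610-49665118, plus strand) encodes a secretoglobin of the upper airway and its glands. Its normalized counts were 189, 3629, 1086, and 2970 in KO and 23227, 15582, 35203, and 28880 in KO+AAV. KO replicate 1 was lowest and KO replicate 2 highest of their group for both *Scgb3a1* and *Bpifa1*, and KO+AAV replicate 2 was lowest of its group for both. The groups did not overlap, the ratio of the means was 13.1, and the log2 difference was 4.33 ± 1.0 (SE).

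*Scgb1a1* (ENSMUSG00000024653, chr19:9083636-9087958, minus strand), the main secretoglobin of club cells, did not show this pattern. It alone took 3.68% to 5.53% of all reads in KO lung and 3.83% to 5.48% in KO+AAV lung. Its normalized counts were 1690071, 2412744, 1918334, and 2253673 in KO and 1640264, 2411596, 2040997, and 2396671 in KO+AAV, with groups that overlapped over nearly their whole range. The log2 difference was 0.03 ± 0.17 (SE).

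Set against *Scgb1a1* of the same library, which removes library size, the secretory genes of the upper airway were higher in KO+AAV. *Scgb3a1* had 0.112, 1.5, 0.566, and 1.32 reads per 1000 *Scgb1a1* reads in KO replicates 1 to 4 and 14.2, 6.46, 17.2, and 12.1 in KO+AAV replicates 1 to 4. *Bpifa1* had 0.0255, 1.29, 0.149, and 0.816 reads per 1000 *Scgb1a1* reads in KO and 30.7, 10.6, 18.4, and 33.6 in KO+AAV. For both ratios the groups were apart, with KO replicate 1 lowest and KO+AAV replicate 2 lowest in its group. *Scgb3a2*, a secretoglobin of club cells that is not a member, had 12.7 to 20.9 reads per 1000 *Scgb1a1* reads in KO and 27.4 to 41.5 in KO+AAV.

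The alveolar members were modestly lower in KO+AAV. *Lamp3* (ENSMUSG00000041247, chr16:19653378-19706375, minus strand), a lysosomal membrane protein of the type 2 cell's lamellar bodies, had 21530, 15187, 15207, and 18448 normalized counts in KO and 14365, 12923, 13129, and 11512 in KO+AAV. Its groups did not overlap, although the nearest libraries, at 15187 and 14365, were close. The mean was 1.36-fold higher in KO than in KO+AAV, and the log2 difference was −0.43 ± 0.14 (SE).

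*Sftpc* (ENSMUSG00000022097, chr14:70520949-70524081, minus strand), the gene of surfactant protein C, had 780185, 544861, 550982, and 488942 normalized counts in KO and 455911, 493028, 513858, and 410106 in KO+AAV. *Ager* (ENSMUSG00000015452, chr17:34597862-34600936, plus strand), a receptor carried at high level by type 1 cells, had 136793, 91274, 91712, and 77976 in KO and 77783, 79503, 77780, and 68927 in KO+AAV. Both genes were highest in KO replicate 1, and for both the groups overlapped. The log2 differences were −0.32 ± 0.16 (SE) for *Sftpc* and −0.36 ± 0.18 (SE) for *Ager*, and without KO replicate 1 they came to −0.18 and −0.19. *Sftpc* and *Ager*, which mark different alveolar cells, kept nearly the same ratio in all 8 libraries, with 151 to 175 *Ager* reads per 1000 *Sftpc* reads.

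By mean RPKM the order in KO lung was *Scgb1a1* (99176), *Sftpc* (12956), *Ager* (1051), *Lamp3* (119), *Scgb3a1* (75.8 ± 61.7, SD), *Bpifa1* (19.6 ± 21.3), *Krt14* (0.113), *Trp63* (0.0477), and *Krt5* at 0. In KO+AAV lung *Scgb3a1* (983 ± 321) and *Bpifa1* (716 ± 337) stood beside *Ager* (812 ± 62.9), and these 3 did not differ beyond their spread, while *Lamp3* (88.5 ± 9.62) was below them. In KO the ranges of the neighbors *Lamp3* (104 to 140) and *Scgb3a1* (6.88 to 139) overlapped, as did those of *Krt14* and *Trp63*, whereas *Krt5* at 0 was below *Trp63* in each library.

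The 19 marker lists of other airway, alveolar, and neighboring cell types give values of genes beyond the members. The lists were also chosen with earlier results of these data known. Their counts are therefore a description beside the shares of all genes, not an independent test. Across all 21072 genes, limma with Benjamini-Hochberg adjustment called 5 genes, all higher in KO+AAV (0.0237% of those tested). The 4 that are no members were the muscarinic receptor gene *Chrm2*, *Asb11*, *Gm21976*, and ENSMUSG00000118522, named here because there were no others. The remaining one was *Krt5*, a member chosen on this comparison that passed the filter on low values only through KO+AAV, so nothing is read from its call. ENSMUSG00000118522, at 0 to 0.867 normalized counts in KO, also passed this filter only through KO+AAV, and nothing is read from its call. None of the 247 genes in the lists, which leave out the members, passed that test in limma, the lowest adjusted P being 0.0691 (limma). The lists were therefore counted at an unadjusted P below 0.01, the study's threshold, which 3.06% of all genes passed as higher and 0.902% as lower. Of the 70 tested genes of the basal, gland, club, goblet, and ciliated lists, 21 (30%) passed as higher and 1 (1.43%) as lower. The 21 include *Itln1* and *Krt17*, given below, which passed the filter on low values only through KO+AAV. Of the 37 tested genes of the 2 alveolar lists, none passed as higher and 12 (32.4%) passed as lower. At an unadjusted P below 0.05 the counts were 29 higher and 2 lower in the airway lists and 0 higher and 25 lower in the alveolar lists, where 11.9% of all genes passed in either direction. By edgeR the adjusted test also called none of either, and by DESeq2 it called 19 airway genes higher and 1 lower, 0 alveolar genes higher and 10 lower, and 628 of all 21072 genes.

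**Figure D2:**
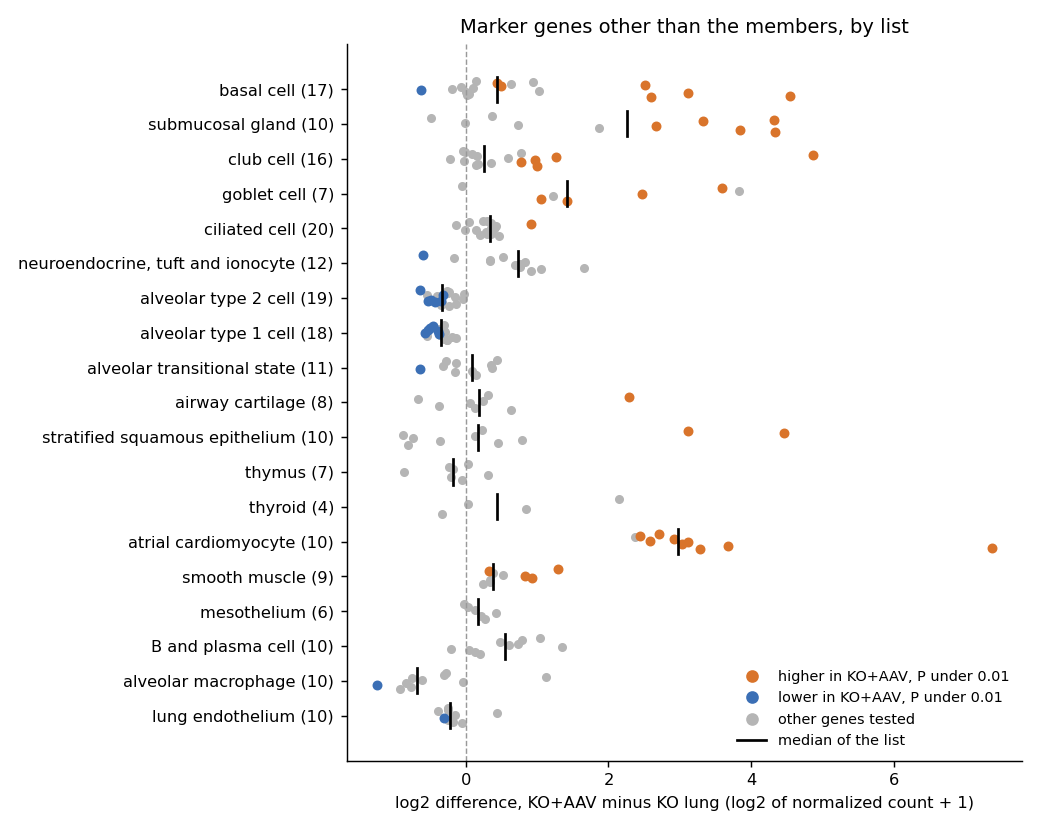
Log2 difference between KO+AAV and KO lung (horizontal axis) of every tested gene in the 19 marker lists, members left out, with the number tested in brackets. Orange and blue points passed an unadjusted P below 0.01 as higher or lower in KO+AAV, grey points did not, and black bars are list medians, which lie at 2.27 for the gland list, 2.97 for the atrial cardiomyocyte list, and −0.33 and −0.34 for alveolar type 2 and type 1 cells.

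The submucosal gland list had a median log2 difference of 2.27 over 10 tested genes against a median of 0 to 2 decimals over all genes, and 5 of the 10 passed as higher. *Ltf*, the gene of lactoferrin, had 316 to 1804 normalized counts in KO and 7671 to 17352 in KO+AAV (log2 difference 3.84 ± 0.51 SE, limma adjusted P = 0.0691). *Bpifb1*, which encodes a secreted relative of BPIFA1, had 166 to 1626 in KO and 5918 to 20794 in KO+AAV (4.33 ± 0.67, limma adjusted P = 0.0910). *Muc5b*, the gel-forming mucin of glands, had 383 to 4130 in KO and 7088 to 14211 in KO+AAV, and *Gp2* had 1.05 to 72 in KO and 217 to 782 in KO+AAV. The groups did not overlap for any of these 4. The polymeric immunoglobulin receptor gene *Pigr*, at 2419 to 5780 in KO and 4021 to 5727 in KO+AAV, overlapped, and the salivary-type gland genes *Pip*, *Dcpp1*, *Dcpp2*, *Dcpp3*, and *Prol1* had 0 counts in all 8 libraries.

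The basal cell list moved in part. Of its 17 tested genes 6 passed as higher and 1 as lower, and the median log2 difference was 0.44. The keratin genes *Krt17* (0 to 6.07 normalized counts in KO, 26.5 to 53.9 in KO+AAV) and *Krt15* (8.62 to 34.7 and 40.4 to 184) passed as higher with groups that did not overlap. So did the water and glycerol channel gene *Aqp3* (7.35 to 30.4 and 62.3 to 282). *Krt17* passed the filter on low values only through KO+AAV, so nothing is read from its place among the 6. The genes of the list with the highest levels are also used by other lung cells. *Dst* at 8901 to 10622 in KO and 9265 to 10998 in KO+AAV and the integrin gene *Itga6* at 5862 to 7795 and 4983 to 7345 overlapped, and the laminin gene *Lamb3*, at 3318 to 5613 in KO and 2168 to 3039 in KO+AAV, passed as lower. The summed level of the list, 27491 to 31181 in KO and 27252 to 30399 in KO+AAV, overlapped. *Krt6a*, a keratin of injured or squamous epithelium, had 0 counts in all 8 libraries.

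The club cell list had 5 of 16 genes higher and none lower, with a median of 0.26. *Reg3g*, which encodes an antibacterial lectin, had 22.1 to 517 normalized counts in KO and 1942 to 9069 in KO+AAV (4.86 ± 0.93, limma adjusted P = 0.112). *Chad*, *Aldh3a1*, *Lypd2*, and *Scgb3a2* were the others, with log2 differences of 0.97, 0.78, 1.26, and 1.0 and groups that did not overlap. The most abundant club cell genes overlapped, *Cyp2f2* with 150716 to 220220 in KO and 164651 to 256020 in KO+AAV and *Cbr2* with 143796 to 168690 and 135059 to 218902.

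Of 7 goblet cell genes 4 passed as higher. *Agr2*, needed for mucin folding, had 9.45 to 52.9 normalized counts in KO and 79.6 to 265 in KO+AAV, *Spdef*, a goblet cell transcription factor, had 50.4 to 100 and 108 to 216, *Itln1* had 0 to 0.911 and 5.77 to 20.9, and *Muc5ac* had 23.1 to 101 and 80.8 to 200 with overlap. The ciliated cell list had 1 of 20 genes higher, *Mlf1* at 736 to 1187 in KO and 1279 to 2285 in KO+AAV. In this list 18 of the 20 genes had a log2 difference above 0. Its abundant genes overlapped, the transcription factor gene *Foxj1* with 5791 to 9444 and 7843 to 14875 and *Sec14l3* with 69326 to 94954 and 72286 to 74559, and the list's median was 0.35. The list of rare airway cells (neuroendocrine, tuft, and ionocyte) had 10 of 12 genes above 0 and a median of 0.73, with a summed level of 1004 to 1097 in KO and 906 to 1108 in KO+AAV. None of the 12 passed as higher and 1 passed as lower, the chloride channel gene *Cftr* (421 to 521 in KO, 257 to 375 in KO+AAV, −0.60 ± 0.13, limma adjusted P = 0.134), and *Foxi1*, the factor of ionocytes, had 0 counts in all 8 libraries.

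Both alveolar lists leaned the other way, with all 37 tested genes at a log2 difference below 0. Of 19 type 2 genes 6 passed as lower, among them *Cxcl15* (80280 to 93780 in KO, 64167 to 72889 in KO+AAV), *Egfl6* (2250 to 3517 and 1357 to 2182), and *Napsa* (8708 to 12222 and 6153 to 8063). *Sftpa1* and *Sftpb*, the most abundant after *Sftpc*, overlapped, at 89974 to 130208 against 82390 to 111814 and at 119813 to 169125 against 102228 to 127162. Of 18 type 1 genes 6 passed as lower, among them the growth factor gene *Vegfa* (46785 to 56690.5 in KO, 36142 to 40709 in KO+AAV), *Sema3e* (4475 to 6092 and 3304 to 4099), and *Gprc5a* (21754 to 32539 and 17203 to 19335). The medians of −0.33 and −0.34 are far smaller than the differences of the gland genes. The summed type 2 level was 517793 to 722662 in KO and 436267 to 519248 in KO+AAV, and the summed type 1 level was 388139 to 541729 in KO and 324747 to 356967 in KO+AAV.

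Transcripts of cardiac muscle moved with the airway members. In mice a sleeve of atrial-type cardiomyocytes runs along the pulmonary veins into the lung. All 10 genes of the atrial cardiomyocyte list had a log2 difference above 0, 9 of the 10 passed as higher, and the median was 2.97. Their summed level was 5523, 36333, 38795, and 58263 normalized counts in KO replicates 1 to 4 and 196095, 86903, 254031, and 300122 in KO+AAV replicates 1 to 4. The groups did not overlap, KO replicate 1 was lowest of all, and KO+AAV replicate 2 was lowest of its group, which were also the lowest libraries of their groups for *Bpifa1*, *Scgb3a1*, and *Trp63*. *Myl7*, the atrial myosin light chain gene, had 125 to 3350 in KO and 5054 to 19622 in KO+AAV, and *Nppa*, the gene of atrial natriuretic peptide, had 0 to 350 and 851 to 5255. The part of a different share of large-vessel, hilar, or cardiac tissue in the airway members was not tested.

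**Figure D3:**
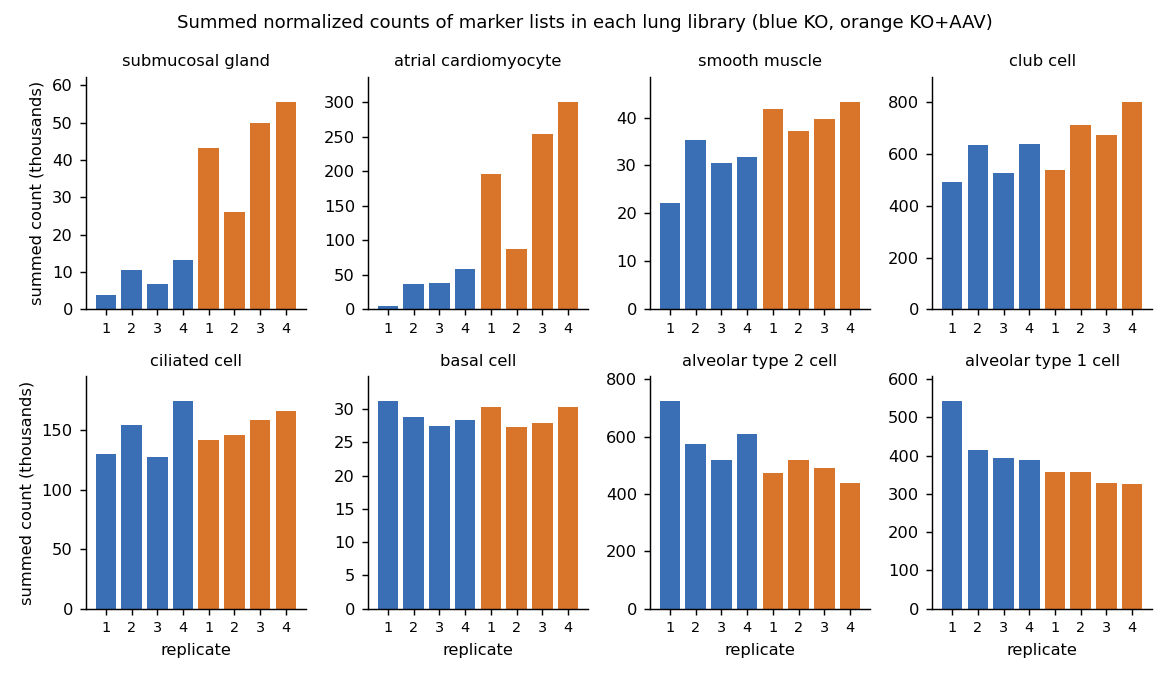
Summed normalized counts (in units of 1000) of 8 marker lists in each lung library, KO replicates in blue and KO+AAV replicates in orange, each axis starting at 0. Gland and atrial cardiomyocyte sums are lowest in KO replicate 1 (3893 and 5523) and highest in KO+AAV replicate 4 (55489 and 300122), club, ciliated, and basal sums overlap, and the type 1 sum is lower in every KO+AAV library.

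Smooth muscle, which rings airways and vessels, moved less. Of its 9 genes 4 passed as higher and the summed level was 22247 to 35291 in KO and 37124 to 43228 in KO+AAV without overlap. *Des*, the gene of desmin, which heart and smooth muscle both use, had 4074 to 6040 in KO and 8300 to 10927 in KO+AAV, and *Myocd*, a cofactor gene of smooth and cardiac muscle, had 36.8 to 78.1 and 84.2 to 175. Of 8 tested cartilage genes 1 passed as higher, *Sox9* (3.15 to 15.3 in KO, 16.2 to 85.1 in KO+AAV), which airway epithelium and glands also use. The defining cartilage genes *Acan* and *Snorc* had 0 counts in all 8 libraries and *Col2a1* had 1.73 to 10.4.

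In the stratified squamous list 2 of 10 tested genes passed as higher, the transcription factor genes *Pax9* (1.05 to 12.1 in KO, 62.3 to 199 in KO+AAV, limma adjusted P = 0.0691) and *Pitx1* (1.05 to 3.64 and 5.77 to 76.8), and the defining keratin and envelope genes *Krt6b*, *Sprr3*, and *Crnn* had 0 counts in all 8 libraries. With at most 3.64 in KO, *Pitx1* passed the filter on low values only through KO+AAV. The keratin gene *Krt13* had 21.0 to 35.5 in KO and 13.5 to 16.8 in KO+AAV, without overlap and lower in KO+AAV, and did not pass (limma adjusted P = 0.271). None of the tested thymus, thyroid, mesothelium, or B and plasma cell genes passed in either direction (7, 4, 6, and 10 tested). In the B and plasma cell list 9 of 10 genes had a log2 difference above 0, the median was 0.54, and the summed level of 5244 to 25318 in KO and 13874 to 50586 in KO+AAV overlapped. Of 10 alveolar macrophage genes 1, *Ear1*, passed as lower, 9 had a log2 difference below 0, the median was −0.68, and the summed level of 20255 to 27978 in KO and 15609 to 24643 in KO+AAV overlapped. Of 10 endothelial genes 1, *Kdr*, passed as lower, 9 had a log2 difference below 0, and the median was −0.22. The endothelial sum did not overlap, at 224380 to 292581 in KO and 182782 to 223405 in KO+AAV, and the part of these cells in the alveolar values was not tested. In the list of the alveolar transitional state, which appears in alveolar repair, 1 of 11 genes passed, the integrin gene *Itgb6*, as lower (1816 to 2250 in KO, 1043 to 1571 in KO+AAV).

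The genes most like each member across the 8 lung libraries, by Pearson r of log2 values among genes with a mean above 50, included list genes and others. For *Bpifa1* they were *Slc5a8* (r = 0.989), *Ltf* (0.989), *Sox21* (0.988), *Bpifb1* (0.982), and *Otx1* (0.980), 2 of which are in the gland list. For *Krt5* they were *Lzts3* (0.991), ENSMUSG00000118522 (0.990), *Chrm2* (0.974), *Asb11* (0.972), and *Dpf3* (0.969). For *Ager* they were *Cxcl16* (0.982), *Uap1l1* (0.982), *Tspan15* (0.981), *Krt7* (0.977), and *Stmn2* (0.975), and the first 3 of these were also the 3 most like *Sftpc*. For *Scgb1a1* they were *Wnk4* (0.948), *Rsad1* (0.947), *Hpn* (0.944), *Tmem88b* (0.942), and *Brd3os* (0.924). The 8 libraries fall into 2 groups, so for *Krt5* and *Bpifa1* such an r mostly reports the difference between the groups.

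In tissues outside the lung the members were tested in samples that the choice of genes did not use. In white fat, *Scgb1a1* reads per *Sftpc* read were close to those in lung, as given below. White fat is therefore no separate test of the lung genes. Of the 9 members, 9 had a mean above the limit in white fat, *Krt5* only through KO replicate 2. The numbers were 3 in heart, 2 in liver, and 3 in gastrocnemius at 40 weeks. By limma with Benjamini-Hochberg adjustment none of them was called between KO+AAV and KO in any of the 4 tissues. The lowest adjusted P of a member was 0.907 in white fat, 0.862 in heart, 0.997 in liver, and 0.958 in gastrocnemius (limma), and edgeR and DESeq2 also called none. The same limma fits called 0% of all genes in white fat, heart, and liver and 0.0247% in gastrocnemius. At an unadjusted P below 0.05 there were 4 members in white fat, 1 in heart, and 0 in liver and gastrocnemius, where 1.04%, 1.28%, 3.32%, and 5.21% of all genes passed. Heart, liver, and gastrocnemius held few reads of the gland and alveolar members, with *Bpifa1* at 0 to 1 read and *Scgb1a1* at 0 to 37 reads per library.

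White fat held reads of the lung genes in every library. *Scgb1a1* had 691, 630, 1927, and 3758 reads in KO white fat replicates 1 to 4 and 510, 1141, 564, and 661 in KO+AAV, or 0.0235% to 0.193% of the mean lung level. *Sftpc* had 313, 126, 625, and 829 reads in KO and 135, 256, 139, and 118 in KO+AAV. Neither gene is known as a product of fat, and heart and liver libraries held at most 16 reads of *Scgb1a1* and at most 9 of *Sftpc*.

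The ratio of *Scgb1a1* to *Sftpc* reads in a white fat library was close to that in the lung library of the same condition and number. *Scgb1a1* reads per *Sftpc* read were 2.17, 4.43, 3.48, and 4.61 in KO lung replicates 1 to 4 and 2.21, 5, 3.08, and 4.53 in KO white fat replicates 1 to 4. In KO+AAV they were 3.60, 4.89, 3.97, and 5.84 in lung and 3.78, 4.46, 4.06, and 5.60 in white fat. Over the 8 pairs Pearson's r was 0.954 and Spearman's rho was 0.905. Without the 2 pairs farthest from the lung median, KO replicate 1 and KO+AAV replicate 4, r was 0.825 and rho 0.771. The match was noticed in the data before it was tested, and the labels do not say whether a shared number means a shared mouse.

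The difference in *Bpifa1* was present in the white fat reads as well. *Bpifa1* had 0, 0, 0, and 4 reads in KO white fat and 14, 19, 9, and 30 in KO+AAV white fat, and these groups did not overlap, as for 1.31% of all genes in white fat (0.64% higher in KO+AAV). The log2 difference of 3.5 ± 0.75 (SE) did not pass across all genes (limma adjusted P = 0.907). Per 1000 *Scgb1a1* reads there were 0 to 1.06 *Bpifa1* reads in KO white fat and 16.0 to 45.4 in KO+AAV white fat, against 0.0255 to 1.29 and 10.6 to 33.6 in lung. *Scgb3a1* had only 2 to 16 reads per white fat library and overlapped. How reads of lung genes came into the white fat libraries was not tested, and this *Bpifa1* difference is not counted apart from that in lung.

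**Figure D4:**
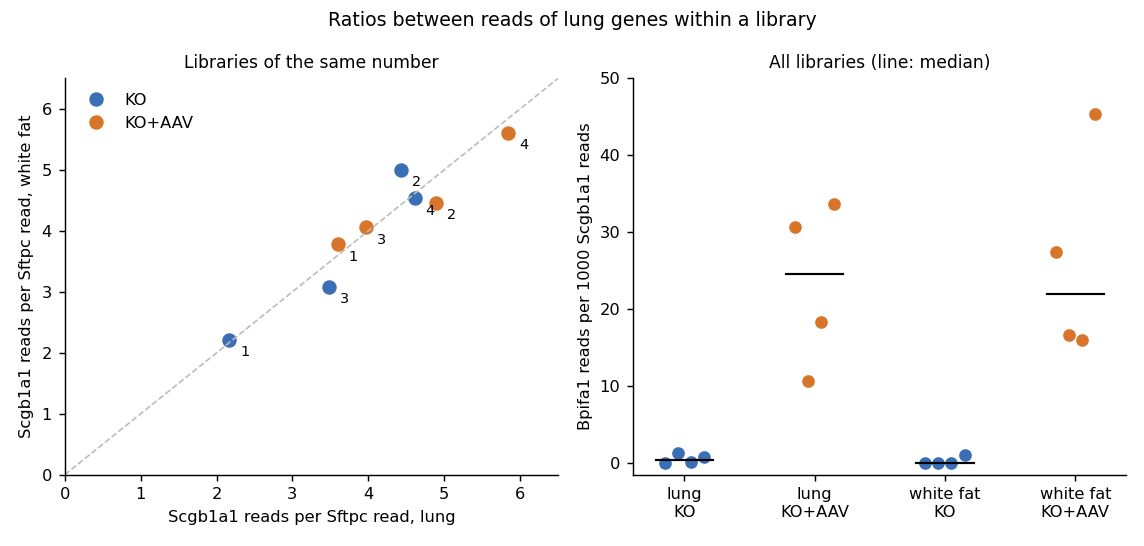
Left, *Scgb1a1* reads per *Sftpc* read in the white fat library (vertical) against the lung library (horizontal) of the same condition and replicate number, with the line of equality dashed. Right, *Bpifa1* reads per 1000 *Scgb1a1* reads in each lung and white fat library, where KO libraries lie at 0 to 1.29 and KO+AAV libraries at 10.6 to 45.4.

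*Krt5*, *Krt14*, and *Trp63* were high in 1 white fat library, KO replicate 2, with 1669, 1358, and 2407 normalized counts, or 18.3, 18.6, and 6.90 RPKM. The other 7 white fat libraries held at most 1.59, 22.4, and 99.2. The same library had 748500 normalized counts of *Gpx5*, a gene of the epididymis, against at most 1.59 in the other 7, and 21980 of the adipocyte gene *Adipoq*, against 85684 to 174316, so that library held epididymal transcripts beside fat. Without it *Krt5* was below the expression limit in white fat, *Trp63* had a log2 difference of −0.83 ± 0.35 (SE, limma adjusted P = 1.0), and still no member was called.

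*Trp63* was also expressed in gastrocnemius, where *Krt5* and *Krt14* had 0 reads in all 40 libraries, so its transcripts there came without the basal keratins. The gene also makes a longer p63 form that muscle is known to use. In WT muscle it had 112 to 178 normalized counts at 10 weeks (median 146, n = 6) and 194, 185, 216, 228, and 148 at 40 weeks. In KO muscle it had 220 to 354 at 10 weeks (median 312, n = 6) and 326, 582, 550, 514, and 363 at 40 weeks, above every WT library of the same age. In KO+AAV muscle it had 118 to 245 at 10 weeks (median 186, n = 7) and 355, 831, 570, 551, and 614 at 40 weeks.

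**Figure D5:**
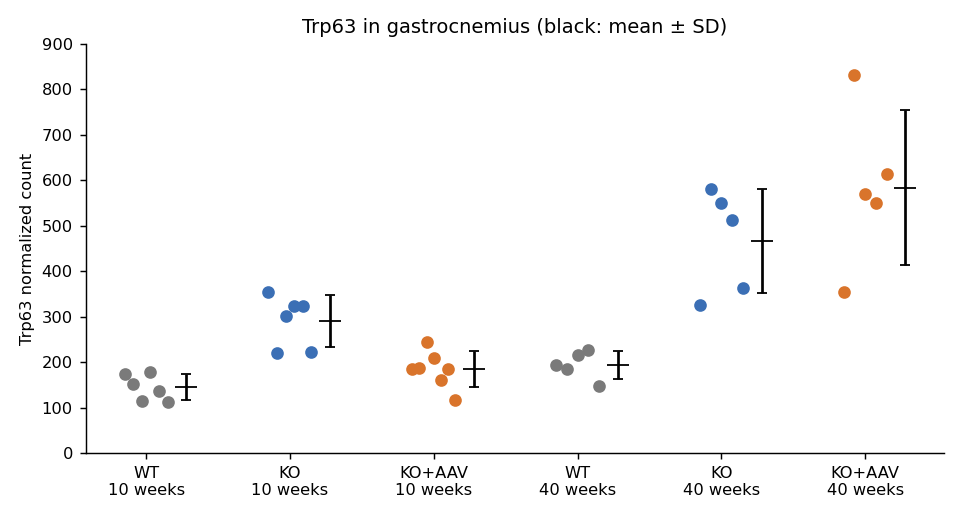
*Trp63* normalized counts in the 34 gastrocnemius libraries of the main experiment by genotype and age, with black marks at mean ± SD. The KO libraries lie above the WT libraries at both ages (220 to 354 against 112 to 178 at 10 weeks, 326 to 582 against 148 to 228 at 40 weeks).

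A limma model over these 34 libraries with sequencing site as a covariate, chosen after the values had been seen, gave a higher *Trp63* level in KO than in WT at 10 weeks (log2 difference 1.0 ± 0.18 SE, limma adjusted P = 0.000323) and at 40 weeks (1.24 ± 0.20, limma adjusted P = 2.69e-05). These comparisons called 8% and 23.5% of all 16199 genes, and the difference between the effects at the 2 ages, 0.24 ± 0.27, did not pass (limma adjusted P = 0.739, 0.37% called). KO+AAV did not pass against KO at 10 weeks (−0.67 ± 0.18, limma adjusted P = 0.122, 0.204% of genes called) or at 40 weeks (0.31 ± 0.20, limma adjusted P = 0.641, 0.259% called). For KO+AAV against KO the difference between the ages was 0.98 ± 0.27 with an unadjusted P of 0.000845 and did not pass across all genes (limma adjusted P = 0.782, 0.00617% called). From 10 to 40 weeks *Trp63* rose in KO+AAV (1.74 ± 0.20, limma adjusted P = 2.90e-06, 8.53% called) and in KO (0.76 ± 0.20, limma adjusted P = 0.0208, 8.31% called), and did not pass in WT (0.52 ± 0.20, limma adjusted P = 0.519, 0.148% called). In KO the rise was of similar size but no longer passed with the libraries of 1 sequencing site (0.67, limma adjusted P = 0.123) or without 40-week KO replicate 2 (0.67, limma adjusted P = 0.0782) or 3 (0.69, limma adjusted P = 0.0501). In the separately normalized GFP table, from 10 weeks, *Trp63* had 82.2, 61.1, and 91.6 normalized counts with the GFP vector. KO controls there had 130, 128, and 229, and these groups of 3 were not tested.

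In heart *Trp63* had 38.1, 15.5, 51.9, and 37.3 normalized counts in KO and 68.4, 50.9, 58.1, and 85.9 in KO+AAV. The groups overlapped only at KO replicate 3, and the log2 difference of 0.95 ± 0.38 (SE) did not pass (limma adjusted P = 0.862). In liver it had at most 4 reads per library.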

How the data were processed

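RNA-Seq was read in lung, white fat, heart, liver, and gastrocnemius. The deposited values are a signal: gene counts that the authors divided by size factors, after alignment to GRCm38 with HISAT2, counting with HTSeq, and normalization with DESeq2. Of these values 100% came back as whole reads within 0.05 of a read, which gave the depth. Symbols came from GENCODE vM21 for 55141 of 55401 identifiers.

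Groups followed the labels. Genes with a mean above 5 were tested on log2(normalized count + 1) with limma 3.58.1 in R 4.3.3 within each tissue and Benjamini-Hochberg adjustment at 0.05. *Trp63* in gastrocnemius had sequencing site as a covariate. Tables used Python 3.11.15. Alternatives were edgeR 4.0.16 and DESeq2 1.42.0 on whole reads, reads scaled to library size alone, another pseudocount, other filters, a replicate block, and leaving out each library. On simulated lung data (20747 genes, 200 changed), limma called 94% and DESeq2 94.5% of the changed genes. Of the calls, 5.05% were false for limma and 11.3% for DESeq2. The changed genes had a mean above 50, the spread was set by the mean alone, and no library shifted in cell content. The simulation therefore does not decide between the limma and DESeq2 counts in the lung data.

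The members and lists were chosen with earlier results of these data known. Named were all members, per list the 3 most abundant genes and the 3 with the smallest P, the 5 genes most like each of 5 members, and *Arntl*, although not every such gene is printed. *Gp2*, *Lypd2*, *Muc5ac*, *Myl7*, *Pigr*, *Scgb3a2*, *Col2a1*, and list genes at 0 were named after their values were seen. In lung, correlations of the deviations of same-numbered KO and KO+AAV samples ran from −0.22 to 0.23, so the numbers were not taken to pair them.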

Additional observations from a re-analysis of the deposited data

Results flagged for a closer look

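In 11 of 88 groups of 4 to 7 libraries, 1 library stood far from the others, where the nominal rate is about 1 in 20 groups. Several of the 11 come from the same library, and low counts are skewed, so 11 is not read against that rate. The measure is the gap to the nearest library over the whole range of the group. KO white fat replicate 2 was highest for *Krt5* (0.999), *Krt14* (0.994), and *Trp63* (0.977), and it is the library with the epididymal transcript *Gpx5*.

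*Krt14* was highest in KO lung replicate 3 (0.900), in KO+AAV white fat replicate 3 with 22.4 normalized counts against at most 1.67 (0.925), and in KO+AAV heart replicate 2 with 19.8 against at most 2.63 (0.867). KO+AAV heart replicate 2 was also highest for *Scgb3a1*, with 19.0 against 4.99 to 6.14 (0.918). *Sftpc* was highest in KO+AAV white fat replicate 2, with 214 against 130 to 141 (0.869).

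*Scgb1a1* was highest in replicate 7 of KO gastrocnemius at 10 weeks, with 33.6 against at most 10.98 (0.673). *Ager* was lowest in KO+AAV lung replicate 4, with 68927 against 77780 to 79503 (0.837). The summed lung endothelium list was highest in KO lung replicate 1, with 292581 against 224380 to 232096 (0.887).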

How the results depend on the processing

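In lung, the 5 genes called by limma became 628 by DESeq2 (533 higher, 95 lower), 13 without a filter (all higher), 2 with a mean above 50 (both higher), and 2 to 257 when 1 library was left out (2 to 254 higher, 0 to 3 lower). The airway lists had 0 genes called as higher by limma, 19 by DESeq2, 2 without a filter, and 0 to 10 without 1 library, and the alveolar lists had 0 called as lower by limma and 10 by DESeq2. The cause of these differences was not tested.

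With the replicate block, lung had 0 genes called, 0 of them higher. The numbers share no stated mouse or batch, so this fit does not mark a weaker effect, and the block changed no other count.

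On the log2 scale, the *Krt5* difference of 5.68 was 1.15 in reads scaled to library size alone (CPM) and 6.66 with a pseudocount of 0.5, and that of *Trp63* in lung was 1.21 in CPM, since a pseudocount weighs more on low values. Without 1 library, *Krt14* ran from −0.93 to 0.40 and *Scgb1a1* from −0.06 to 0.15, so both changed sign, within their spread, and the other 7 members kept theirs. The rise of *Trp63* with age in KO muscle was 0.67 in the Novogene libraries alone, no longer called, and 0.67 to 0.88 without 1 40-week library. The ICBR libraries, all from 10 weeks, gave 0.97 for KO against WT and −0.47 for KO+AAV against KO, with the same calls. Depth limited *Krt5*, *Krt14*, and the lung genes in white fat, which rest on few reads.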
